A study of Homo sapiens with 15 samples.

Results

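The genes described here are 44 heat shock proteins, chaperones, co-chaperones and heat shock factors, chosen by symbol from tables of 19604 protein-coding entries each. All 44 were listed in both tables. The rule names genes by symbol and uses no measured value, but it was written with earlier results of these data known. They comprise 5 cytosolic HSP70 genes, 3 HSP110 exchange factors, 5 cytosolic HSP40 genes, 2 cytosolic HSP90 genes with 5 co-chaperones, 8 CCT chaperonin subunits, 5 chaperones of the endoplasmic reticulum (ER), 5 of mitochondria, 2 small HSP genes, 2 BAG factors and 2 heat shock factors.

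Total RNA was sequenced from OCI-AML5, an established human acute myeloid leukaemia line, in 15 libraries that formed 5 groups of 3. In the drug experiment the cells stayed untreated or were given OTX015 or ARV-825, each at 1000 nM, for 4 h. OTX015 inhibits the BET bromodomain proteins, readers of acetylated histones, and ARV-825 is OTX015 joined through a linker to pomalidomide, a ligand of the ubiquitin ligase subunit cereblon, which marks BET proteins for degradation. The control is labelled as untreated, and no vehicle is named. In the shRNA experiment cells were transduced for 72 h, either with an shRNA without a target or with one labelled as directed at RUNX1, a transcription factor of blood cell development. The titles of that last group name Runx3, and how many distinct hairpins were used is not stated in the labels. All groups shared 1 cell line, the same medium with 20% serum and the cytokine GM-CSF at 10 ng/mL. By its title the series concerns leukaemia cells with mutant RUNX1.

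Chaperones bind unfolded or partly folded proteins and let them reach their native state. HSP70 works in cycles of ATP hydrolysis, which J-domain proteins (HSP40) start and exchange factors (HSP110 and BAG proteins) reset, and it can pass clients on to HSP90, whose co-chaperones choose clients and set the pace of its cycle. The CCT ring folds actin, tubulin and other proteins inside a closed chamber, and heat shock factor HSF1 induces many cytosolic chaperone genes by binding inverted GAA repeats, the heat shock element. Leukaemia cells commonly express high levels of these genes, and the ER has a separate set that is induced when unfolded proteins collect there.

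Levels are given as FPKM, a per-length measure of sequenced fragments that is scaled for library size and was inferred as the unit of these tables. Library sums of FPKM lay between 554570 and 656995, the number of reads behind them is unknown, and the 44 genes held 1.04% to 1.24% of that sum, each at 1 FPKM or more in every library. All 8 myeloid markers had a mean of at least 1 FPKM, and their summed level was 881 to 936 FPKM in control against 550.0 to 561 under OTX015 and 607 to 653 under ARV-825. In the shRNA table it came to 815 to 837 FPKM in the non-targeting group and 636 to 653 under the RUNX1 shRNA. Of the markers of other blood cells and of epithelium, NKG7, a granule protein of killer cells, was the highest. The summed T and NK cell markers stood at 34.7 to 36.7 FPKM in control, at 32.9 to 34.2 under OTX015 and at 49.0 to 50.5 under ARV-825, with 2 of 5 markers at a mean of 1 FPKM or more and CD2 listed at 0 in all 9 drug libraries. They stood at 6.29 to 7.32 FPKM in the non-targeting group and 3.74 to 5.004 under the RUNX1 shRNA. Summed megakaryocyte markers were 2.25 to 2.90 FPKM in control, 2.23 to 2.88 under OTX015 and 5.04 to 6.48 under ARV-825. Of these 5 markers 2 had a mean of 1 FPKM or more, and PF4 and GP9 were at 0 in all 9 drug libraries. Summed B cell markers were 4.08 to 4.90 FPKM in control, 2.15 to 2.76 under OTX015 and 4.68 to 6.42 under ARV-825. Of those 5 only 1, CD79A, had a mean of 1 FPKM or more. The part of these shifts in the results was not tested. In bulk RNA, fewer cells of a type and less RNA per cell cannot be told apart. ARV-825 replicate 1 stands apart in listing 6 of 13 mitochondrially encoded genes at 0, and counts are given with and without it. RUNX1 itself stood at 69.8, 72.2 and 69.8 FPKM with non-targeting shRNA and at 37.2, 42.9 and 36.0 with RUNX1 shRNA (log2 change -0.85 ± 0.0589, SE, adjusted p = 3.71e-05). All 3 libraries labelled RUNX1 shRNA were thus below all 3 of the other group.

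Promoter sequences of 40 of the 44 genes, in 55 windows from 250 bases before to 50 after the transcription start, were taken from RefSeq on GRCh38.p14. They are shown because they hold the elements by which these genes are usually grouped, and because genes with the same element moved in different directions below. The motif of 3 inverted repeats, GAANNTTCNNGAA on either strand, was found in 8 of the 40 genes, in 8 of their 55 windows. It was in 172 of 35116 RefSeq windows of that length (0.49%). The stretches with that motif were as follows, with the matching bases in capitals and all sequences written on the strand of the gene.
HSPA6, chr1:161524441-161524503, plus strand: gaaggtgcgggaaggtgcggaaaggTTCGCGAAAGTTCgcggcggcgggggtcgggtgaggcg
HSPA8, chr11:123062171-123062199, minus strand: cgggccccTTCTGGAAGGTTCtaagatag
HSPA8 further upstream, chr11:123062346-123062374, minus strand: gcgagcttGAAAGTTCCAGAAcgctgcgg
CHORDC1, chr11:90223084-90223112, minus strand: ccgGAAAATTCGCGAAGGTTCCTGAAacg
DNAJA1, chr9:33025268-33025296, plus strand: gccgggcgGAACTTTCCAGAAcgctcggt
DNAJB6, chr7:157336848-157336910, plus strand: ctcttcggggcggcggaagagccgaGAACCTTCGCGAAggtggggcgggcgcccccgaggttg
HSP90AA1, chr14:102087112-102087140, minus strand: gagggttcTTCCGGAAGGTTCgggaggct
HSP90AB1, chr6:44247823-44247851, plus strand: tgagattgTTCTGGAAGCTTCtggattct
HSPD1, chr2:197500062-197500090, minus strand: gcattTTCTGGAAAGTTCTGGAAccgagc

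In CHORDC1 the motif matched at 3 overlapping places between bases -60 and -38 from the start, and in HSPD1 at 2 between -245 and -228. In DNAJA1 it lay after the start, at bases 4 to 16, and in the other genes before it. HSP90AB1 held a second match, at bases -165 to -153. The shorter forms with 2 repeats, which the motif above contains, were in 6.77% (GAANNTTC) and 7.74% (TTCNNGAA) of all windows. Of the genes without the longer motif, HSPA1A, HSPA1B, DNAJB1, HSPB1, CCT2 and TCP1 held the first of these, and CCT4, DNAJB4, HSPA4L, HSPA9 and STIP1 the second. A match is a description of letters in the window and not evidence that a factor binds there.

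The ER stress element, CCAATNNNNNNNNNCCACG on either strand, was in 27 of all windows (0.0769%) and in 2 of the 55 windows described here. These belonged to 2 of the 40 genes, both of them ER chaperones. These are given here for comparison with the heat shock elements. Both genes rose with both drugs, and so did the ER gene HSPA13, which had no match. Whether the element has a part in this was not tested.
HSPA5, chr9:125241366-125241434, minus strand: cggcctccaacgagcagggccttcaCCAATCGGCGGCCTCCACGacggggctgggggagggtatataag
HSP90B1, chr12:103930316-103930344, plus strand: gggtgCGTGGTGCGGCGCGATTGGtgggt
HSP90B1 further upstream, chr12:103930211-103930239, plus strand: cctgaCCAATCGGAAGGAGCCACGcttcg

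The first question was how chaperone genes stood after 4 h of BET degradation or inhibition. ARV-825 raised 10 and lowered 20 of the 44 genes at an adjusted p under 0.05 (limma over all 10819 tested genes, Benjamini-Hochberg), which is 22.7% higher and 45.5% lower against a background of 35.8% and 38.4% of all tested genes. OTX015 raised 11 (25%) and lowered 20 (45.5%), against 36.1% and 33.5% of all tested genes. The shares called lower were thus above the background of each drug and the shares called higher below it, which describes the list and was not tested. The median log2 change of the 44 was -0.10 with ARV-825 and -0.08 with OTX015, and over all tested genes -0.01 and 0.03. Both drug comparisons used the same 3 control libraries, so their values are given side by side and not as repeats of each other. Without ARV-825 replicate 1 the counts for that drug were 9 higher and 21 lower. The 8 genes with the longer heat shock motif divided into 1 higher, 4 lower and 3 not called with ARV-825 and again 1, 4 and 3 with OTX015. The 32 genes whose windows lacked it divided into 9, 12 and 11 with ARV-825 and 10, 13 and 9 with OTX015. HSPA1A, HSPA1B, DNAJB1 and HSPB1 are among these 32 and held a shorter form of the motif. The 32 can therefore not be read as genes without a heat shock element.

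**Figure D1:**
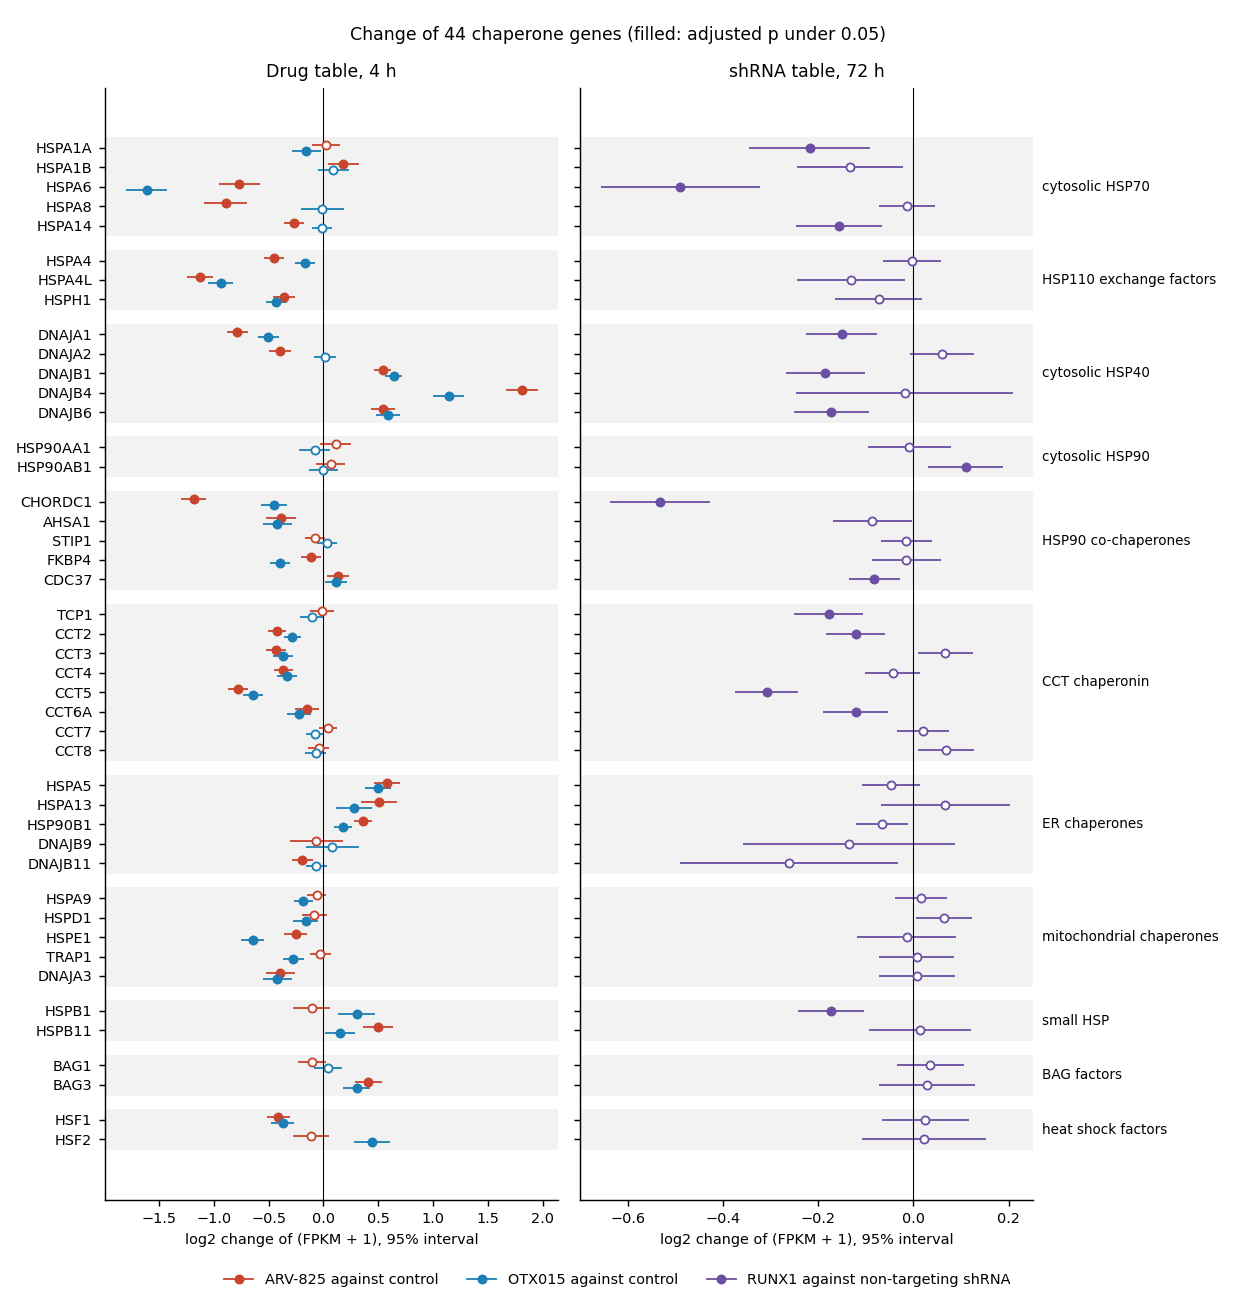
Log2 change of (FPKM + 1) with 95% limma intervals for the 44 genes, ordered by role, for the drug comparisons at 4 h (left) and the shRNA comparison at 72 h (right, on its own scale). Filled points passed an adjusted p of 0.05: the HSP110 genes lay left of 0 for both drugs, DNAJB1, DNAJB4 and DNAJB6 right of it, and CHORDC1 left of it in all 3 comparisons.

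Among cytosolic HSP70 genes, the constitutive HSPA8 and the stress-inducible HSPA6 set the drugs apart. HSPA8, the most abundant of the 44 by mean level in control and with OTX015 but not with ARV-825, stood at 1224, 1121 and 1121 FPKM in control, at 1182, 1108 and 1152 with OTX015 and at 719, 604 and 552 with ARV-825. The ARV-825 libraries lay far below the other 6, while OTX015 and control overlapped. HSPA8 fell to 54.1% of control with ARV-825 (log2 change -0.89 ± 0.0884, adjusted p = 4.35e-06). With OTX015 its change was -0.01 (95% interval -0.21 to 0.19, adjusted p = 0.928).

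HSPA6, which many cells express mainly under stress, stood at 10.6, 8.67 and 9.61 FPKM in control, 2.50, 2.64 and 2.26 with OTX015 and 5.62, 4.91 and 5.20 with ARV-825. The groups were fully apart, with control highest and OTX015 lowest. It fell by 1.61 on the log2 scale with OTX015 (SE 0.0858, adjusted p = 5.88e-08) and by 0.77 with ARV-825 (SE 0.0858, adjusted p = 1.15e-05). Of the 50-base words of its transcripts, 45.5% also occur in the neighbouring pseudogene HSPA7, so its level is uncertain. Its mean FPKM was 25.6% of control with OTX015 and 54.4% with ARV-825.

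The main stress-inducible pair HSPA1A and HSPA1B moved little. HSPA1A stood at 29.4, 26.7 and 30.3 FPKM in control, 26.2, 25.7 and 25.5 with OTX015 and 28.0, 31.2 and 28.5 with ARV-825. The OTX015 libraries were the lowest 3, and ARV-825 overlapped control. Its OTX015 change of -0.15 ± 0.0578 passed the threshold (adjusted p = 0.0339), and the call was lost without any 1 of the 3 OTX015 libraries and without control replicate 1 or 3 (adjusted p = 0.0562 to 0.132). The HSPA1A call was also lost with low genes kept in (adjusted p = 0.0511) and without a mean-variance trend (adjusted p = 0.0505). HSPA1B, the near-identical copy, stood at 28.1, 24.7 and 28.4 FPKM in control, 29.8, 28.2 and 28.4 with OTX015 and 30.3, 33.2 and 28.9 with ARV-825, so that all ARV-825 libraries were above control by a small margin and overlapped OTX015. The ARV-825 change was 0.18 ± 0.0646 (adjusted p = 0.0247), and the call was lost without ARV-825 replicate 2 (0.13, adjusted p = 0.0964) or control replicate 2 (0.12, adjusted p = 0.108). HSPA1A shares 71.3% of its 50-base words with HSPA1B, and reads of these genes cannot be assigned to either with certainty. HSPA14, the HSP70 of the ribosome-associated complex, fell with ARV-825 (-0.27 ± 0.041, adjusted p = 0.000142), and with OTX015 its change was -0.01 (95% interval -0.10 to 0.08).

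The 3 HSP110 genes, whose products release ADP from HSP70, fell with both drugs, beside 33.5% of all tested genes with OTX015 and 38.4% with ARV-825. HSPA4L stood at 20.5, 20.6 and 19.7 FPKM in control, 10.0, 10.1 and 10.3 with OTX015 and 8.48, 8.62 and 9.15 with ARV-825. The groups did not overlap, and its mean was 49.9% of control with OTX015 and 43.1% with ARV-825. Its log2 changes were -0.94 ± 0.052 with OTX015 (adjusted p = 8.18e-08) and -1.13 ± 0.052 with ARV-825 (adjusted p = 1.48e-08). HSPA4, its widely expressed relative at 139 to 149 FPKM in control, changed by -0.17 with OTX015 and -0.45 with ARV-825, and HSPH1, at 101 to 106 FPKM in control, by -0.43 and -0.36.

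Cytosolic HSP40 genes, whose products bring clients to HSP70 and start its ATPase, divided by subfamily. The type A genes fell or were not called, and the 3 type B genes rose with both drugs. Among all tested genes 36.1% rose with OTX015 and 35.8% with ARV-825. DNAJA1 stood at 111, 101 and 106 FPKM in control, 76.5, 73.0 and 74.0 with OTX015 and 61.9, 61.8 and 59.3 with ARV-825. All 3 groups were apart, and DNAJA1 fell by 0.50 with OTX015 (SE 0.0438, adjusted p = 2.26e-06) and by 0.79 on the log2 scale with ARV-825 (SE 0.0438, adjusted p = 5.29e-08). DNAJA2 fell with ARV-825 (-0.40 ± 0.0452, adjusted p = 1.31e-05), and its OTX015 change was 0.02 (95% interval -0.08 to 0.12).

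DNAJB4, a J protein that is low in these cells, had the largest rise of the 44 with either drug. It stood at 4.11, 4.74 and 4.56 FPKM in control, 10.9, 10.96 and 11.3 with OTX015 and 19.3, 17.5 and 17.8 with ARV-825. Control, OTX015 and ARV-825 formed 3 separate steps, at 2.48 and 4.07 times the control mean for OTX015 and ARV-825. The log2 changes of (FPKM + 1) were 1.14 ± 0.0645 (adjusted p = 9.02e-08) and 1.81 ± 0.0645 (adjusted p = 2.69e-09).

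DNAJB1, the classical heat-inducible HSP40, stood at 50.2, 50.1 and 50.9 FPKM in control, 81.4, 77.3 and 78.9 with OTX015 and 74.8, 73.6 and 72.9 with ARV-825. Every drug library exceeded every control library by more than the spread within groups. DNAJB1 rose by 0.64 with OTX015 (SE 0.0359, adjusted p = 8.52e-08) and by 0.54 with ARV-825 (adjusted p = 2.00e-07). DNAJB6, which keeps polyglutamine proteins from aggregating, stood at 70.5, 61.8 and 65.6 FPKM in control, 96.9, 100.3 and 102 with OTX015 and 99.4, 94.6 and 96.5 with ARV-825. The drug groups overlapped each other well above control, and the log2 changes were 0.59 ± 0.0495 (adjusted p = 1.75e-06) with OTX015 and 0.55 ± 0.0495 (adjusted p = 2.10e-06) with ARV-825. DNAJB1 and HSPA6, both textbook targets of HSF1, thus moved in opposite directions with each drug.

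**Figure D2:**
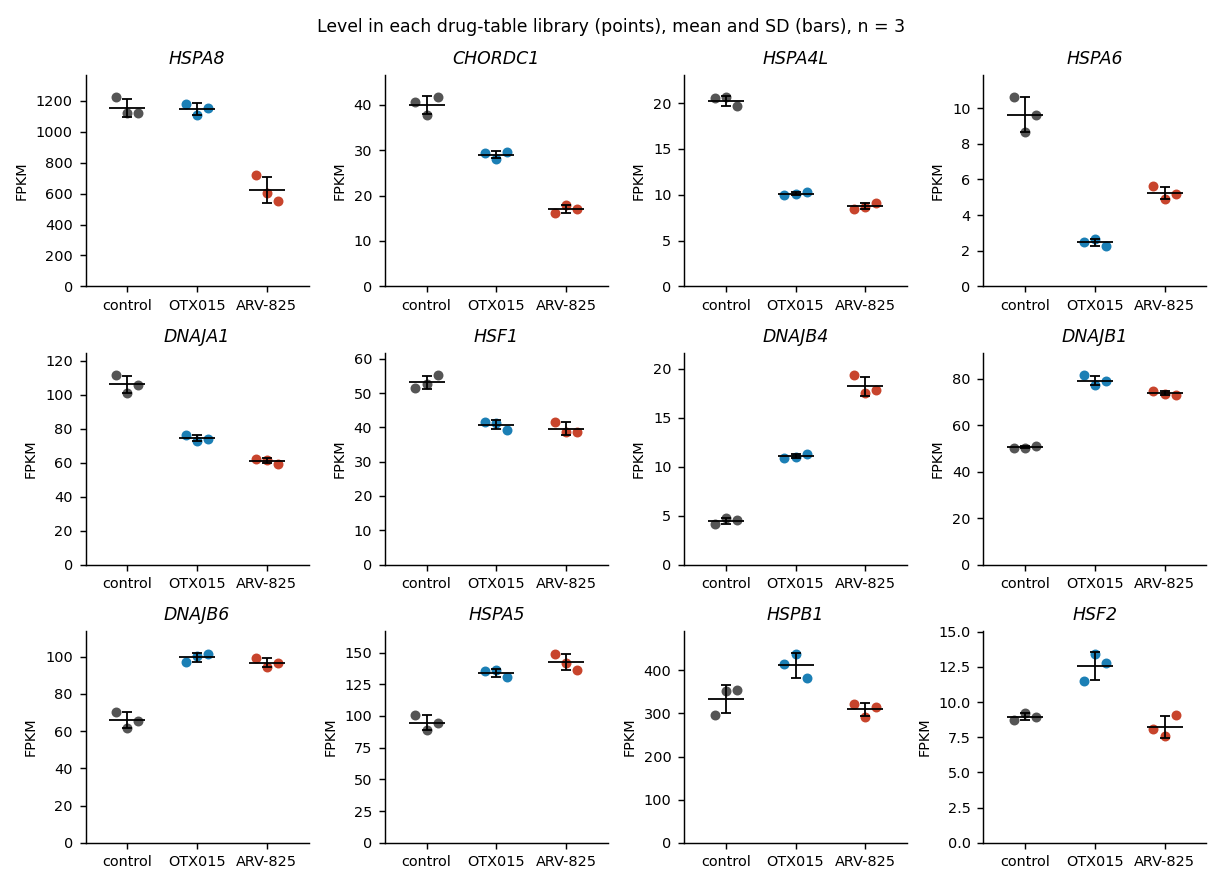
FPKM of 12 of the genes in the 9 drug libraries, with 1 panel per gene and axes from 0, points for libraries and bars for the mean and SD of 3. ARV-825 libraries of HSPA8 lie at 552 to 719 FPKM against 1108 to 1224 in the other 6, HSPA6 is lowest with OTX015, and DNAJB4 rises in steps from control to OTX015 to ARV-825.

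The cytosolic HSP90 genes were not called with either drug. HSP90AA1, the more inducible of the pair, stood at 619.9, 653 and 627 FPKM in control, 631, 579 and 589 with OTX015 and 739.7, 631 and 688 with ARV-825. These ranges overlap. Its changes were -0.08 with OTX015 (95% interval -0.22 to 0.06, adjusted p = 0.292) and 0.11 with ARV-825 (-0.03 to 0.25, adjusted p = 0.132). The second passed without ARV-825 replicate 2 (0.17, adjusted p = 0.0285). HSP90AB1, the constitutive gene, held the same 3 values in control and OTX015 (774, 762 and 730.2 FPKM), since values recur between libraries of this table, which coarsens differences among the most abundant genes. With ARV-825 it stood at 850.5, 762 and 762 FPKM (log2 change 0.07, 95% interval -0.06 to 0.20, adjusted p = 0.324).

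Of the 5 HSP90 co-chaperones among the 44 genes, CHORDC1 had the largest estimated change with either drug. This gene, whose product binds HSP90 and is itself heat-inducible, stood at 40.6, 37.7 and 41.6 FPKM in control, 29.3, 28.1 and 29.6 with OTX015 and 16.2, 17.8 and 17.1 with ARV-825. Control was highest and ARV-825 lowest, without overlap. CHORDC1 fell by 0.45 with OTX015 (SE 0.0527, adjusted p = 2.20e-05) and by 1.18 on the log2 scale with ARV-825 (SE 0.0527, adjusted p = 1.17e-08), to 72.5% and 42.6% of control. AHSA1, which stimulates the HSP90 ATPase, fell with OTX015 (-0.42 ± 0.0603, adjusted p = 9.81e-05) and ARV-825 (-0.39 ± 0.0603, adjusted p = 0.000152). FKBP4, an immunophilin of steroid receptor complexes, fell with OTX015 (-0.40 ± 0.041, adjusted p = 7.95e-06) and by less with ARV-825 (-0.11 ± 0.041, adjusted p = 0.0286). The FKBP4 call for ARV-825 was lost after median-ratio rescaling (adjusted p = 0.052), in limma without a mean-variance trend (adjusted p = 0.0618), without ARV-825 replicate 2 or 3 and without control replicate 1 or 3 (adjusted p = 0.0634 to 0.112).

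CDC37, which brings kinases to HSP90, was slightly higher with ARV-825 (0.13 ± 0.0451, adjusted p = 0.0202) and with OTX015 (0.12 ± 0.0451, adjusted p = 0.0382). The ARV-825 call for CDC37 was lost without ARV-825 replicate 1 (adjusted p = 0.0542) or control replicate 1 (adjusted p = 0.0729). The OTX015 call was lost without OTX015 replicate 1 or 2 or control replicate 1 or 2 (adjusted p = 0.0722 to 0.127), after median-ratio rescaling (adjusted p = 0.0721) and in limma without a mean-variance trend (adjusted p = 0.0619). STIP1, the bridge between HSP70 and HSP90, was called with neither drug (-0.07 with ARV-825, 95% interval -0.17 to 0.02, and 0.03 with OTX015, -0.06 to 0.13).

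Of the 8 CCT subunit genes, 5 fell with each drug, CCT2, CCT3, CCT4, CCT5 and CCT6A, and TCP1, CCT7 and CCT8 were not called. Over all tested genes 33.5% fell with OTX015 and 38.4% with ARV-825. The ring takes up each subunit in equal number, so the genes are shown together on the FPKM scale, which is per length. CCT5 stood at 349, 365 and 345 FPKM in control, 225, 231 and 221 with OTX015 and 206, 200.1 and 210.4 with ARV-825. It went from the highest of the 8 genes in each control library to a place below CCT3 in each drug library. Its log2 changes were -0.64 ± 0.0412 with OTX015 (adjusted p = 2.34e-07) and -0.78 ± 0.0412 with ARV-825 (adjusted p = 3.72e-08). CCT3 changed by -0.37 and -0.43, CCT4 by -0.33 and -0.37, CCT2 by -0.28 and -0.42, and CCT6A by -0.22 and -0.15 with OTX015 and ARV-825.

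The CCT6A call for ARV-825 was lost without ARV-825 replicate 2 or control replicate 2 or 3 (adjusted p = 0.0536 to 0.0705). The OTX015 changes of TCP1 (-0.10, 95% interval -0.21 to 0.01), CCT7 (-0.08, -0.16 to 0.01) and CCT8 (-0.07, -0.16 to 0.03) did not pass, but did so after median-ratio rescaling (adjusted p = 0.0215, 0.0187 and 0.0339). TCP1 also passed without OTX015 replicate 2 (-0.14, adjusted p = 0.0364). With ARV-825 their changes were -0.02, 0.04 and -0.04. The highest subunit in a library was 2.48 to 2.66 times the lowest in control and 2.17 to 2.27 times with either drug.

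**Figure D3:**
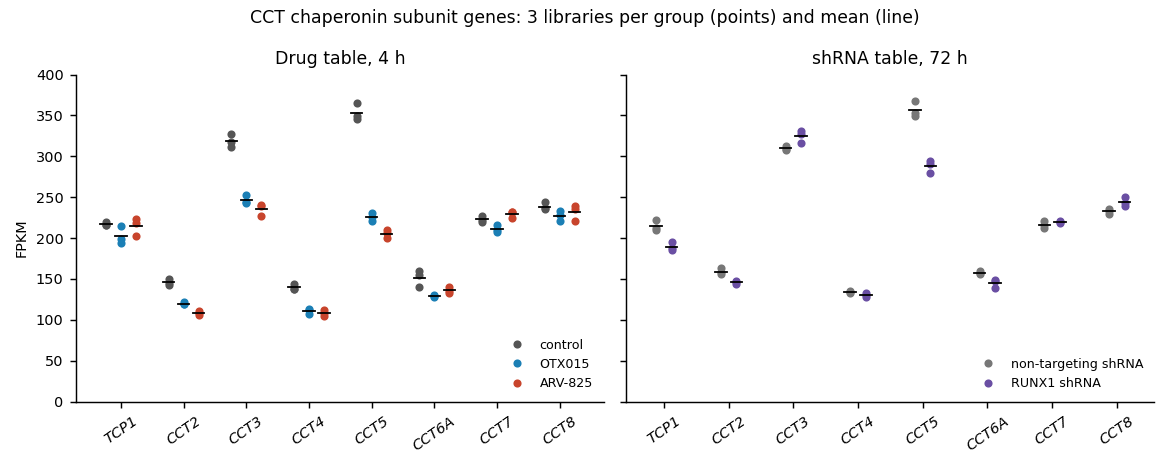
FPKM of the 8 CCT subunit genes in the drug libraries (left) and shRNA libraries (right), with a point for each library and a line at the mean of 3. CCT5 lies at 345 to 365 FPKM in control and 200.1 to 231 with the drugs, while the drug groups of TCP1, CCT7 and CCT8 lie close to control.

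Of the 5 ER chaperone genes, 3 rose with both drugs, and neither J protein did. Over all tested genes 36.1% rose with OTX015 and 35.8% with ARV-825. HSPA5, the main HSP70 of the ER (BiP), stood at 101, 88.7 and 94.8 FPKM in control, 135, 136 and 131 with OTX015 and 149, 142 and 136 with ARV-825. All drug libraries were above all control libraries, and the drug groups overlapped near 136 FPKM. HSPA5 rose by 0.50 with OTX015 (SE 0.0528, adjusted p = 1.01e-05) and by 0.58 with ARV-825 (SE 0.0528, adjusted p = 2.15e-06). HSPA13, an ER-associated HSP70 without a client-binding domain, stood at 11.6, 10.4 and 9.52 FPKM in control, 12.3, 13.01 and 13.5 with OTX015 and 14.5, 15.5 and 16.0 with ARV-825. It rose stepwise without overlap, by 0.28 (SE 0.0733, adjusted p = 0.0059) and 0.51 (SE 0.0733, adjusted p = 8.22e-05). HSP90B1, the HSP90 of the ER (GRP94), rose by 0.18 with OTX015 (adjusted p = 0.00184) and by 0.36 with ARV-825 (adjusted p = 8.51e-06).

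DNAJB11, a J protein that serves HSPA5 in the ER, fell with ARV-825 (-0.19 ± 0.0435, adjusted p = 0.00209), and its OTX015 change of -0.06 (95% interval -0.16 to 0.03) passed the threshold only without control replicate 1 (-0.10, adjusted p = 0.0467). DNAJB9, another ER J protein and the lowest of the 44 at 3.19 to 3.82 FPKM in control, was called with neither drug (-0.07 and 0.08, with 95% intervals of -0.31 to 0.18 for ARV-825 and -0.16 to 0.32 for OTX015).

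All 5 mitochondrial chaperone genes fell with OTX015, and 2 with ARV-825, against 33.5% and 38.4% of all tested genes. HSPE1, the lid of the mitochondrial chaperonin, stood at 194, 185 and 194 FPKM in control, 121, 116 and 128 with OTX015 and 160, 153 and 167 with ARV-825. The groups were apart, and OTX015 was the lowest. HSPE1 fell by 0.65 with OTX015 (SE 0.0487, adjusted p = 7.67e-07) and by 0.25 with ARV-825 (SE 0.0487, adjusted p = 0.000704). HSPD1, the barrel of the same chaperonin, whose gene stands head to head with HSPE1, changed by -0.16 with OTX015 (adjusted p = 0.0177) and -0.08 with ARV-825 (95% interval -0.20 to 0.03, adjusted p = 0.173). The HSPD1 call for OTX015 was lost without OTX015 replicate 1 (-0.12, adjusted p = 0.0803) or control replicate 3 (-0.14, adjusted p = 0.0711), and the ARV-825 change passed without ARV-825 replicate 1 (-0.12, adjusted p = 0.0451).

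DNAJA3, the J protein of the matrix, fell by 0.42 with OTX015 (SE 0.0604) and by 0.39 with ARV-825. TRAP1, the mitochondrial HSP90, fell with OTX015 (-0.28 ± 0.0431, adjusted p = 0.000189), and its ARV-825 change was -0.03 (95% interval -0.12 to 0.07). HSPA9, the matrix HSP70 (mortalin), fell with OTX015 (-0.18 ± 0.0399, adjusted p = 0.00195), and its ARV-825 change was -0.06 (95% interval -0.15 to 0.03).

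Among the remaining stress genes, HSPB1 (HSP27), a small HSP that holds unfolded proteins, stood at 296, 351 and 354 FPKM in control, 415, 439 and 382 with OTX015 and 321, 292 and 314 with ARV-825. OTX015 was the highest group, and ARV-825 overlapped control. HSPB1 rose with OTX015 (0.31 ± 0.0764, adjusted p = 0.00433). With ARV-825 its change was -0.11 (95% interval -0.28 to 0.06, adjusted p = 0.226), and without control replicate 1 it passed the threshold as lower (-0.19, adjusted p = 0.0268). HSPB11, named as a small HSP and now known as IFT25, a subunit of intraflagellar transport, stood at 13.7, 13.3 and 12.6 FPKM in control, 13.99, 16.1 and 14.4 with OTX015 and 18.2, 19.7 and 19.4 with ARV-825. It rose by 0.50 with ARV-825 (SE 0.0622, adjusted p = 2.58e-05). Its OTX015 change of 0.15 ± 0.0622 was at the threshold (adjusted p = 0.0483), and the call held in the fits without OTX015 replicate 1 only, of those that left out 1 library (adjusted p = 0.0512 to 0.198 in the others). The HSPB11 call was also lost without a filter on low values, after rescaling, without a mean-variance trend and in a fit of these groups alone (adjusted p = 0.0537 to 0.0987).

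BAG3, a stress-inducible exchange factor that links HSP70 to autophagy, stood at 15.5, 17.6 and 17.4 FPKM in control, 21.2, 21.3 and 20.5 with OTX015 and 21.9, 23.3 and 22.8 with ARV-825. Both drug groups were above control, and BAG3 rose by 0.30 with OTX015 (SE 0.0554, adjusted p = 0.00058) and by 0.41 with ARV-825 (SE 0.0554, adjusted p = 5.09e-05). BAG1, which also binds the BCL2 protein, was called with neither drug (0.04 and -0.10, with 95% intervals of -0.09 to 0.17 for OTX015 and -0.23 to 0.02 for ARV-825).

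HSF1, the main regulator of the heat shock response, stood at 51.5, 52.7 and 55.2 FPKM in control, 41.7, 41.3 and 39.3 with OTX015 and 41.7, 38.8 and 38.6 with ARV-825. Both drug groups were below control and overlapped each other. HSF1 fell by 0.37 with OTX015 (SE 0.0467, adjusted p = 3.58e-05) and by 0.41 with ARV-825 (SE 0.0467, adjusted p = 1.25e-05). HSF2, its partner in mixed trimers, stood at 8.76, 9.20 and 8.94 FPKM in control, 11.5, 13.4 and 12.8 with OTX015 and 8.10, 7.55 and 9.04 with ARV-825. OTX015 was the highest group, and ARV-825 overlapped control. HSF2 rose with OTX015 (0.44 ± 0.0758, adjusted p = 0.000355), and its ARV-825 change was -0.11 (95% interval -0.28 to 0.05, adjusted p = 0.197). These are mRNA levels, and the activity of either factor was not measured.

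ARV-825 and OTX015 were the 1 pair of related compounds, at matched dose and time, and were compared in the same fit with p-values adjusted over all tested genes. Between them 12 of the 44 genes were higher with ARV-825 (27.3%) and 14 lower (31.8%), against 24.7% and 33.4% of all tested genes. The median difference was 0.03, and -0.04 over all tested genes. After median-ratio rescaling 15 were higher and 11 lower, so that 57.7% of the called genes were higher in place of 46.2%. Without ARV-825 replicate 1 the counts were 10 and 13.

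The largest differences were in genes already described. HSPA8 was lower with ARV-825 than with OTX015 by 0.88 on the log2 scale (difference -0.88 ± 0.0884, adjusted p = 1.89e-05), CHORDC1 by 0.73 (difference -0.73 ± 0.0527, adjusted p = 2.77e-06) and HSF2 by 0.56 (difference -0.56 ± 0.0758, adjusted p = 0.000131). HSPA6 was higher with ARV-825 (0.85 ± 0.0858, adjusted p = 2.01e-05), where it had 2.12 times the OTX015 mean, and so was DNAJB4 (0.67 ± 0.0645, adjusted p = 1.49e-05). For HSPA6 the degrader libraries lay between those of control and inhibitor, and for HSPA8, CHORDC1 and DNAJB4 they lay farther from control than those of the inhibitor.

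By role, 3 of 5 mitochondrial genes were higher with ARV-825 than with OTX015, HSPE1 (0.39 ± 0.0487, adjusted p = 7.19e-05), TRAP1 (0.25 ± 0.0431, adjusted p = 0.000655) and HSPA9 (0.12 ± 0.0399, adjusted p = 0.0251), and none lower. Among all tested genes 24.7% were higher and 33.4% lower. The HSPA9 call was lost without ARV-825 replicate 1 or 3 or OTX015 replicate 1 (adjusted p = 0.0687 to 0.101), without a mean-variance trend (adjusted p = 0.0564) and in a fit of both drug groups alone (adjusted p = 0.0505). In the cytosol, DNAJA2 (-0.41), DNAJA1 (-0.28), HSPA4 (-0.28), HSPA14 (-0.26), HSPA4L (-0.19) and CCT2 (-0.14) were lower with ARV-825, all with SEs of 0.0361 to 0.052 and adjusted p-values of 3.30e-05 to 0.00914. HSPB1 was lower too (-0.41 ± 0.0764, adjusted p = 0.000968), and FKBP4 (0.29), HSP90B1 (0.18) and HSPB11 (0.35) were higher.

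The differences of HSPA13 (0.23), HSP90AA1 (0.19), HSPA1A (0.17), CCT7 (0.12), CCT5 (-0.14), DNAJB11 (-0.13), STIP1 (-0.11) and DNAJB1 (-0.10) passed at adjusted p-values of 0.0153 to 0.0482. Each of these 8 calls was lost when some single libraries were left out: for CCT5 without ARV-825 or OTX015 replicate 2, for HSPA13 without ARV-825 replicate 3 or OTX015 replicate 1, for CCT7 without ARV-825 replicate 3 or OTX015 replicate 1 or 3, and for HSPA1A without ARV-825 replicate 2 or OTX015 replicate 2 or 3 (adjusted p = 0.0526 to 0.0856). HSP90AA1 was lost without ARV-825 replicate 1 or 3 or OTX015 replicate 2 or 3, DNAJB11 without replicate 2 or 3 of ARV-825 or 1 or 2 of OTX015, DNAJB1 without any ARV-825 library or OTX015 replicate 1 or 3, and STIP1 in all such fits except those without ARV-825 replicate 1 or OTX015 replicate 3 (adjusted p = 0.0506 to 0.167). DNAJB1, DNAJB11 and STIP1 were also lost after median-ratio rescaling (adjusted p = 0.184, 0.0902 and 0.183) and without a mean-variance trend (0.0766, 0.0522 and 0.092), and DNAJB1 and STIP1 in a fit of both drug groups alone (0.0602 and 0.082).

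For the other 18 genes the difference was not called, which does not show that the drugs act alike on them. The intervals were narrow for CDC37 (0.02, 95% interval -0.08 to 0.12), CCT8 (0.03, -0.07 to 0.12), CCT4 (-0.03, -0.12 to 0.06), HSF1 (-0.04, -0.14 to 0.06) and DNAJB6 (-0.04, -0.15 to 0.07). The interval was wider for DNAJB9 (-0.15, -0.39 to 0.09), and that of HSPA5 lay mostly above 0 (0.09, -0.03 to 0.20). BAG1 lay next to the threshold (-0.14, -0.27 to -0.01, adjusted p = 0.0542) and passed it without OTX015 replicate 3 (-0.20, adjusted p = 0.00768), without ARV-825 replicate 3 (adjusted p = 0.0496) and without control replicate 1 (adjusted p = 0.0493). DNAJB9 passed without OTX015 replicate 3 (-0.26, adjusted p = 0.0469), and BAG3, CCT6A and TCP1 passed after median-ratio rescaling (adjusted p = 0.0322, 0.0458 and 0.0283).

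**Figure D4:**
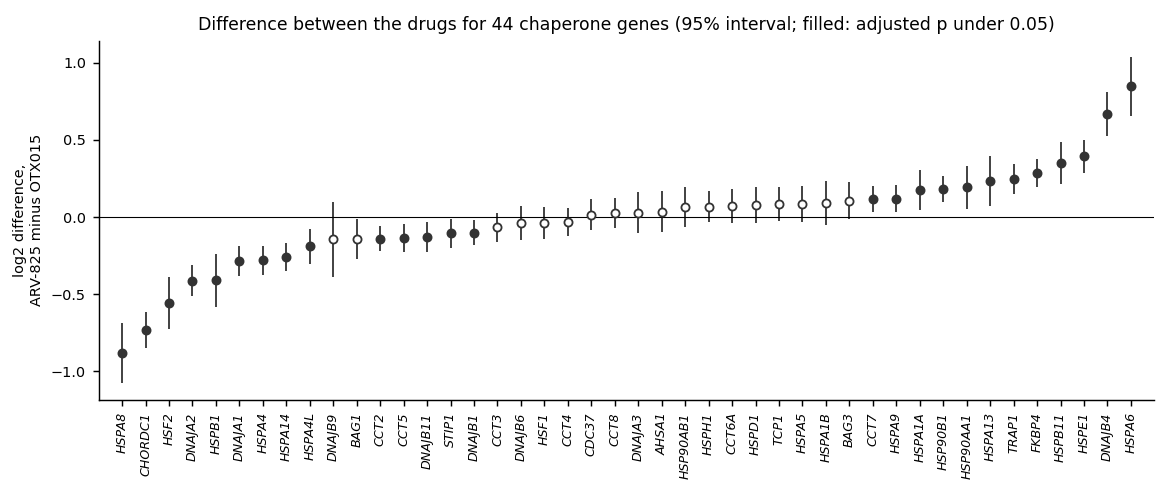
Difference in log2(FPKM + 1) between ARV-825 and OTX015 for each of the 44 genes, in order of size, with 95% limma intervals and filled points at an adjusted p under 0.05. HSPA8 and CHORDC1 form the low end, at -0.88 and -0.73, and DNAJB4 and HSPA6 the high end, at 0.67 and 0.85.

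Summed over the 44 genes, chaperone mRNA came to 7339 to 7389 FPKM in control, as against 6838 to 6997 under OTX015 and 6282 to 6816 under ARV-825. The groups were apart in this order on the FPKM scale. Without HSPA8 the sums were 6165 to 6244, 5686 to 5869 and 5678 to 6097 FPKM, and the drug groups then overlapped. Library sums also differed. As a percentage of the library sum, the 44 genes held 1.17% to 1.19% in control and 1.06% to 1.14% with OTX015. With ARV-825 they held 1.04% to 1.14%, so as shares the drug groups overlapped with HSPA8 included. The values are scaled to the library, and total RNA per cell was not measured.

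In the shRNA experiment the question was what RUNX1 shRNA did at 72 h. Of the 44 genes, 13 fell (29.5%) and 1 rose (2.27%), against a background of 13.8% lower and 13.5% higher of all 10925 tested genes. The median log2 change was -0.03, and -0.01 over all tested genes, and the changes were small: CHORDC1 alone passed with an absolute log2 change of at least 0.5. After median-ratio rescaling 3 genes were higher and 13 lower (18.8% higher in place of 7.14%). The 1 gene that rose, HSP90AB1, was at 695, 672 and 659 FPKM with non-targeting and 763, 709 and 717 with RUNX1 shRNA. The groups did not overlap (0.11 ± 0.0344, adjusted p = 0.0442), but the HSP90AB1 call was lost without replicate 2 or 3 of the non-targeting or 1 or 3 of the RUNX1 shRNA (adjusted p = 0.0594 to 0.141).

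CHORDC1 stood at 41.6, 44.8 and 41.2 FPKM with non-targeting and 30.6, 28.2 and 28.6 with RUNX1 shRNA. All RUNX1 shRNA libraries were lower, at 68.4% of the non-targeting mean (log2 change -0.53 ± 0.0461, adjusted p = 0.000128). HSPA6 stood at 2.81, 2.75 and 2.68 FPKM with non-targeting and 1.77, 1.69 and 1.55 with RUNX1 shRNA. It fell by 0.49 on the log2 scale (SE 0.0733, adjusted p = 0.00197), again without overlap, at low levels where the added pseudocount damps the change.

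CCT5 stood at 368, 353 and 350 FPKM with non-targeting and 280.1, 294 and 290.4 with RUNX1 shRNA. It was the highest CCT subunit in the non-targeting libraries and stood below CCT3 in the others. CCT5 fell by 0.31 (SE 0.0291, adjusted p = 0.000198), TCP1 by 0.18, CCT2 by 0.12 and CCT6A by 0.12 on the log2 scale, while CCT3 (0.07, 95% interval 0.01 to 0.13, adjusted p = 0.0811), CCT4 (-0.04), CCT7 (0.02) and CCT8 (0.07, 0.01 to 0.13, adjusted p = 0.0786) were not called. CCT3 and CCT8 passed as higher after median-ratio rescaling (adjusted p = 0.0433 and 0.0478), and CCT3 also without RUNX1 shRNA replicate 2 (0.09, adjusted p = 0.0378). The CCT6A call was lost without non-targeting replicate 1 or 2 (adjusted p = 0.0649 and 0.051), and those of CCT2 and CCT6A in limma without a mean-variance trend (adjusted p = 0.0543 and 0.0683).

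DNAJB1 stood at 39.96, 40.7 and 42.8 FPKM with non-targeting and 35.4, 36.3 and 36.5 with RUNX1 shRNA. It fell by 0.18 (SE 0.0361, adjusted p = 0.00675). HSPB1 stood at 283, 298 and 292 FPKM with non-targeting and 250.3, 259 and 265 with RUNX1 shRNA, and fell by 0.17 (SE 0.0302, adjusted p = 0.00408). The groups of DNAJB1 and HSPB1 did not overlap.

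HSPA1A stood at 13.5, 13.99 and 13.6 FPKM with non-targeting and 11.6, 10.9 and 12.4 with RUNX1 shRNA. It fell by 0.22 (SE 0.0556, adjusted p = 0.0211), and the call was lost without any 1 of the non-targeting libraries or RUNX1 shRNA replicate 1 (adjusted p = 0.0533 to 0.0759). HSPA1B, with 13.6, 14.5 and 14.05 FPKM against 12.97, 12.2 and 13.04, was not called (-0.13, 95% interval -0.24 to -0.02, adjusted p = 0.0757). The HSPA1A and HSPA1B levels of this table were below those of the drug table, but the tables were normalized separately and this was not tested.

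DNAJB6 (-0.17), DNAJA1 (-0.15), HSPA14 (-0.16) and CDC37 (-0.08) completed the genes that fell. The HSPA14 call was lost without non-targeting replicate 1 or 2 (adjusted p = 0.0613 and 0.0745), and the CDC37 call without any non-targeting library or RUNX1 shRNA replicate 1 or 3 (adjusted p = 0.0628 to 0.112) or without a mean-variance trend (adjusted p = 0.128). Of all the genes that fell with RUNX1 shRNA, DNAJB1, DNAJB6 and CDC37 had risen with both drugs. CHORDC1, HSPA6, DNAJA1, CCT2, CCT5 and CCT6A had fallen with both. The matching shares over all tested genes were not counted.

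HSPA8, which had fallen with ARV-825, stood at 1201, 1179 and 1142 FPKM with non-targeting and 1168, 1158 and 1164 with RUNX1 shRNA. These overlapped, and the change was -0.01 (95% interval -0.07 to 0.05, adjusted p = 0.734). BAG3 (15.5, 15.7 and 15.9 against 15.9, 15.5 and 16.7 FPKM) was not called (0.03, 95% interval -0.07 to 0.13). HSF1 (50.6, 52.9 and 52.1 against 50.3, 52.9 and 55.4 FPKM) changed by 0.03 (-0.07 to 0.12), and HSF2 (10.97, 11.9 and 11.2 against 11.6, 12.2 and 10.9 FPKM) by 0.02 (-0.11 to 0.15). All these groups overlapped.

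The 5 ER and 5 mitochondrial genes were not called with RUNX1 shRNA at adjusted p-values of 0.0743 or more. Among them DNAJB11 had the largest estimate (-0.26, 95% interval -0.49 to -0.03), with 55.5, 39.7 and 46.6 FPKM in the RUNX1 shRNA libraries against 58.2, 53.9 and 57.1, and it passed without RUNX1 shRNA replicate 1 (-0.38, adjusted p = 0.00858). The HSP110 genes HSPA4 (0.00), HSPA4L (-0.13) and HSPH1 (-0.07) were not called, though the latter pair passed as lower without RUNX1 shRNA replicate 1 (adjusted p = 0.0413 and 0.0462). Of the 8 genes with the longer heat shock motif, 4 fell, HSPA6, CHORDC1, DNAJA1 and DNAJB6, and 1 rose, HSP90AB1, whose call was lost in several fits. Of the 32 without it, 7 fell and 0 rose, against 13.8% lower and 13.5% higher over all tested genes.

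**Figure D5:**
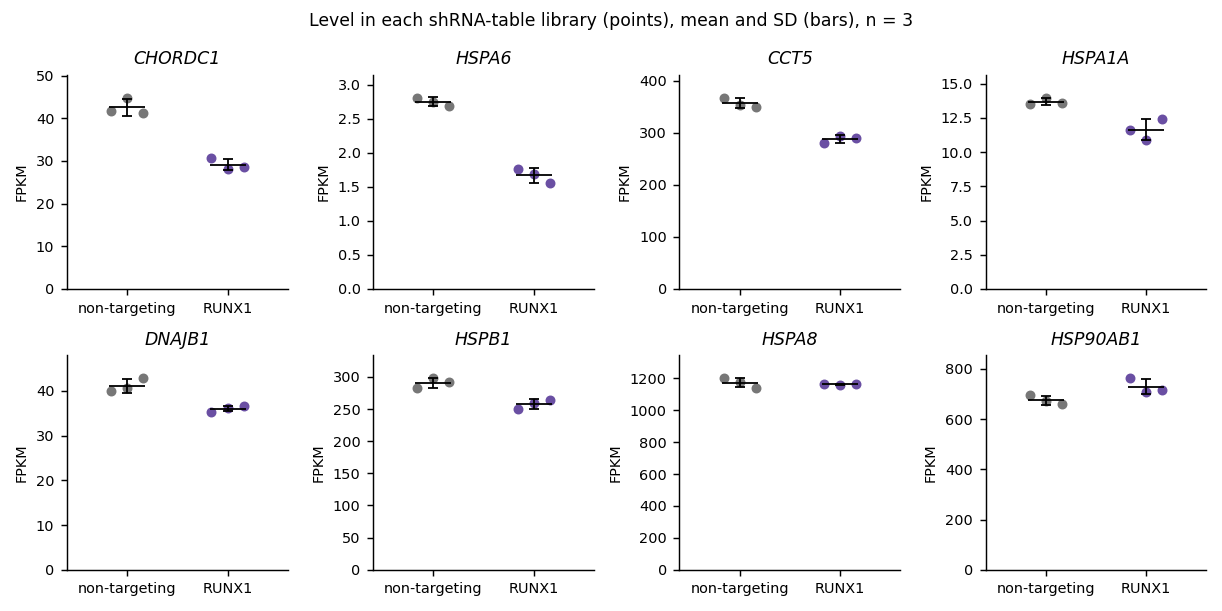
FPKM of 8 of the genes in the 6 shRNA libraries, with axes from 0, points for libraries and bars for the mean and SD of 3. CHORDC1, HSPA6 and CCT5 are lower in all RUNX1 shRNA libraries, the groups of HSPA8 overlap, and those of HSP90AB1 are close to each other at 659 to 763 FPKM.

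Other genes of protein folding were read from 6 further lists, of which 117 genes were tested. ARV-825 raised 48 and lowered 41 of them, OTX015 raised 46 and lowered 37, and with RUNX1 shRNA 9 were higher and 20 lower. Over all tested genes the shares called higher and lower were 35.8% and 38.4% with ARV-825, 36.1% and 33.5% with OTX015 and 13.5% and 13.8% with RUNX1 shRNA, and each list below is a description to be read against these. The list of ER folding and quality control had 19 of 30 genes higher and 3 lower with ARV-825 and 17 and 3 with OTX015, with medians of 0.31 and 0.22, against 35.8% and 36.1% of all tested genes higher. ERO1B, an oxidase that renews disulfide formation in the ER, rose from 3.47 ± 0.267 to 9.21 ± 0.194 FPKM (mean ± SD, n = 3) with ARV-825 (1.19 ± 0.0792, SE, adjusted p = 1.99e-07). With OTX015 the ERO1B mean was 213% of control. XBP1, the transcription factor of the unfolded protein response, went against that list and fell from 194 ± 4.92 to 53.4 ± 3.29 FPKM with ARV-825 (-1.84) and 79.3 ± 3.06 with OTX015 (-1.28). DDIT3, a stress-induced transcription factor, was lower with ARV-825 than with OTX015 (-0.99 ± 0.116, adjusted p = 5.09e-05), at 3.66 ± 0.444 against 8.24 ± 0.914 FPKM. Its mean was 82.4% of control with ARV-825 and 186% with OTX015. With RUNX1 shRNA the calcium-binding ER lectin CALR fell by 0.49, and EDEM1, which directs misfolded glycoproteins to degradation, rose by 0.52 on the log2 scale, with 4 of the 30 genes higher and 5 lower.

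Further HSP90 co-chaperones had 4 of 19 genes higher and 11 lower with ARV-825 and 4 and 10 with OTX015 (medians -0.17 and -0.18), against 38.4% and 33.5% of all tested genes lower. PTGES3 (p23), which holds HSP90 in its closed state, fell from 258 ± 6.02 to 156 ± 1.23 FPKM with RUNX1 shRNA (-0.72 ± 0.0254, adjusted p = 1.29e-06). Mitochondrial folding genes and proteases had 4 of 17 higher and 10 lower with ARV-825, and 3 and 10 with OTX015 (medians -0.18 and -0.26), beside the same 38.4% and 33.5%. The prefoldin and phosducin-like partners of CCT had 3 of 12 higher and 6 lower with ARV-825, and 2 and 6 with OTX015 (medians -0.13 and -0.26), again beside 38.4% and 33.5%.

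HSP70 co-chaperones and J proteins had 13 of 29 higher and 9 lower with ARV-825 and 16 and 6 with OTX015 (medians 0.15 and 0.21), against 35.8% and 36.1% of all tested genes higher and 38.4% and 33.5% lower. DNAJC17, a J protein of the nucleus, fell the most of them, from 13.02 ± 1.55 to 2.32 ± 0.535 FPKM with ARV-825 (-2.09 ± 0.133, adjusted p = 1.47e-07) and to 3.96 ± 0.572 with OTX015 (-1.50). DNAJB12, a J protein of the ER membrane, was lower with ARV-825 than with OTX015 (-0.95 ± 0.0629, adjusted p = 1.91e-06). Small HSPs, heat shock factors and other heat-inducible genes had 5 of 10 higher and 2 lower with ARV-825, and 4 and 2 with OTX015, beside the same shares. SQSTM1 (p62), the autophagy receptor, rose from 78.9 ± 3.81 to 220 ± 13.1 FPKM with OTX015 (1.46 ± 0.0528, adjusted p = 4.44e-09). With ARV-825 the SQSTM1 mean was 180% of control. RNF207 was higher with ARV-825 than with OTX015 (0.96 ± 0.122, adjusted p = 8.59e-05), at 5.04 ± 0.844 against 2.12 ± 0.482 FPKM. The RNF207 mean was below control with both drugs, at 80.9% with ARV-825 and 34.0% with OTX015.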

How the data were processed

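The authors deposited 1 table of 9 drug libraries and 1 of 6 shRNA libraries for 19620 coding entries, of which 16 pseudoautosomal copies were left out. The deposited values were read as FPKM, with quantile normalization among the libraries of each table. This reading was inferred from the table names, Cufflinks and never-negative, fractional values that recur between libraries. Library medians still differed, at 1.80 to 1.92 FPKM with ARV-825, 2.06 to 2.10 with OTX015 and 2.15 to 2.20 in control. The set of entries over which the values were normalized is not known. Per the submitters' processing notes, TopHat2 2.0, Cufflinks 2.0 and hg19 were used, and the annotation and strand setting are not given in the sources used here. Depth is unknown, so no counting interval is given, and reads of overlapping or near-identical genes cannot be told apart. Groups follow the treatment labels. Values were tested as log2(FPKM + 1), a scale that damps changes of low genes, with limma 3.58.1 in R 4.3.3 (mean-variance trend, two-sided). Genes were tested where the mean over a table's libraries reached 1 FPKM, a filter all 44 genes passed in both tables. The code was tried on simulated data with independent normal noise and 200 changed genes. Far more genes were called in each comparison here, so that trial does not cover this setting. Each table had 1 fit, no test crossed the tables, and Benjamini-Hochberg adjustment ran over all tested genes at a threshold of 0.05. The series calls the samples biological triplicates without naming separate cultures, so p-values rest on the spread among these libraries, which may be technical.

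The 44 genes and the 6 further lists were chosen with earlier results of these data known. All 44 are accounted for by role. The value in every library is given for genes past the threshold with an absolute log2 change of at least 0.5, for HSPA1A, HSPA1B, HSPA6, DNAJB1, HSPB1, BAG3, HSF1 and HSF2, and for some others added after their values were seen. Of the further lists the 3 called genes with the largest change per comparison are named. Of 135 genes written in those lists 133 were found and 16 did not pass the filter, and DNAJC7 and TCEAL9 were not analysed here. Symbols were checked by gene ID, and 43 of 44 matched, HSPB11 being listed under the symbol IFT25. Shared words of 50 bases were counted in transcripts of GENCODE release 29. Alternatives were a pseudocount of 0.1, no filter, a mean of at least 5 FPKM, median-ratio rescaling, a 2-group fit, limma without a trend, a replicate block, and leaving out each library.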

Additional observations from a re-analysis of the deposited data

How the results depend on the processing

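None of the 44 genes changed direction while called under any alternative. Of the called genes, 26 of 30 with ARV-825 and 27 of 31 with OTX015 kept their calls under all alternatives that tested them. So did 17 of 26 between the drugs and 8 of 14 with RUNX1 shRNA. These 8 include HSPA6, with means of 2.75 FPKM with non-targeting and 1.67 with RUNX1 shRNA. The filter of at least 5 FPKM left HSPA6 untested in that comparison. With single libraries left out, ARV-825 gave 9 to 10 genes higher and 18 to 21 lower, OTX015 9 to 10 and 18 to 20, ARV-825 against OTX015 8 to 12 and 10 to 15, and RUNX1 shRNA 0 to 2 and 9 to 14. The single gene higher with RUNX1 shRNA became 0 genes without a filter on low values or without a mean-variance trend, and 3 after median-ratio rescaling. Without a filter and without the trend, HSP90AB1 missed the threshold (adjusted p = 0.109 and 0.119). Without non-targeting replicate 2 or 3, 978 or 966 of all genes were called lower in place of 1512.

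Deviations from the group means correlated at -0.32 to 0.0613 between same-numbered drug libraries and at -0.22 to 0.41 between differently numbered ones. In the shRNA table the ranges were -0.00304 to 0.0612 and -0.0704 to 0.0222. With 3 libraries per group, these values cannot decide whether the numbers pair the samples. With the replicate number as a block, the counts higher and lower were 10 and 20 with ARV-825, 9 and 19 with OTX015, 10 and 11 between the drugs and 1 and 14 with RUNX1 shRNA. The block removed the calls of CDC37, HSPB11 and HSPA1A with OTX015 and of HSPA1A, HSPA9, DNAJB1, DNAJB11 and STIP1 between the drugs, and added DNAJB11 with RUNX1 shRNA (adjusted p = 0.0326). Small changes of abundant genes are limited by quantile normalization, which left HSP90AB1 4 distinct values in 9 libraries.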
